A study of Drosophila melanogaster with 3 samples.

Results

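The core genes of the Notch receptor pathway were examined for binding of the tagged transcription factor net in whole Drosophila melanogaster prepupae, the stage between larva and pupa. The 9 genes were chosen by name: the receptor gene N, the ligand genes Dl and Ser, and fng, neur, mam, numb, Su(H) and H. They are 9 of the 13968 protein-coding genes annotated by Ensembl on the BDGP6 assembly, which has the coordinates of genome build dm6. Dl is named Delta there (FBgn0000463) and was matched by its identifier, since the symbol dl belongs to the unrelated gene dorsal.

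All 3 libraries came from 1 stably transgenic line, net-GFP, in which green fluorescent protein (GFP) was joined to the C-terminal end of net. Males and females were pooled, the age was given as unknown, and sonicated chromatin was precipitated with an anti-GFP antibody for the chromatin immunoprecipitation with sequencing (ChIP-seq). The libraries are biological replicates 1, 3 and 4 of a single group, with no control library among the samples used here, so there is no comparison between treatments and no p-value is given. The labels do not name the promoter that drives the transgene, and whole animals mix all tissues, so a peak cannot be placed in a cell type. No library from flies without the transgene was analysed here.

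Notch is a transmembrane receptor that is activated by the ligands Delta and Serrate on neighbouring cells. The ligand must be taken up by its own cell, which pulls on the receptor and lets proteases release the intracellular part of Notch. That part enters the nucleus and joins the DNA-binding protein Su(H) and the coactivator Mastermind to switch target genes on. In the developing wing the pathway sets up the margin and keeps veins narrow, and net, a basic helix-loop-helix protein, is known for restraining vein formation.

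Peaks were taken from the deposited list kept by the irreproducible discovery rate (IDR) procedure, which held 7571 peaks. All 7571 were also the strongest peaks of the relaxed list called on the pooled libraries, so a place in the list reflects pooled strength. Signal is the authors' own value for each peak from the pooled libraries. It ranged from 134 to 3742 over the list with a median of 225, and rank 1 is the strongest peak. A summit was counted for a gene if it lay in the gene or within 2 kb of it. A summit was called matched in a library if that library had a summit within 100 bp among its own 7571 strongest.

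By this count 7 of the 9 genes had IDR summits and 2, Su(H) and H, had none. The background is that 34.4% of all protein-coding genes had at least 1, and 53.6% of the 4156 whose span lay within the members' range of 3.85 to 69.2 kb. The 7 genes with summits were the 7 longest, from neur at 19.1 kb to mam at 69.2 kb. Of all protein-coding genes at least as long as neur, 68.3% had a summit. Each of the 7 had 3 or more summits, which held for 43.7% of genes of that length. For genes with spans between those of Su(H) and H, 3.85 to 6.98 kb, the share with a summit was 41.5%. These length limits and the limit of 3 summits were set after the members' counts were seen. The lowest count among the 7 genes was 3, so all 7 met that limit by construction.

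The sequences around the strongest summits of 5 genes are shown so that their base composition can be read beside the GC values. Those of neur, numb and N are among the 1892 strongest peaks of the list, and those of Dl and Ser are not. Each is the 101-base window centred on the summit, read 5′ to 3′ on the plus strand of the Release 6 genome (build dm6). Capitals mark the longest stretch made of A and T alone. The windows are chr3R:9031959-9032059 for neur, chr2L:9449541-9449641 for numb, chrX:3162439-3162539 for N, chr3R:19314477-19314577 for Dl and chr3R:27186300-27186400 for Ser. All 5 lie in introns.
neur: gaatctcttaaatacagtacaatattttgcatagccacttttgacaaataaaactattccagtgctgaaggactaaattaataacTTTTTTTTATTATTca
numb: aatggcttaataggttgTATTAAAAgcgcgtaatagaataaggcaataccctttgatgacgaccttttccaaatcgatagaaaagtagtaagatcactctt
N: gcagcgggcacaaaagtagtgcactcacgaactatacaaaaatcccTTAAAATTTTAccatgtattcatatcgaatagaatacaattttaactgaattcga
Dl: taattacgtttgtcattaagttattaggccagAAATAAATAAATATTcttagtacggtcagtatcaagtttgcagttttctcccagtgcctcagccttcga
Ser: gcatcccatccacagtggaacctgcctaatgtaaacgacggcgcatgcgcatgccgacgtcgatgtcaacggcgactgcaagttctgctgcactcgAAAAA

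In these 5 windows GC content was 25.7% at neur, 34.7% at numb, 33.7% at N, 35.6% at Dl and 55.4% at Ser. Windows of the same length centred 250 bp to either side had a mean GC of 41.6%, 52.5%, 48.5%, 44.6% and 46.5% in the same order. Only the Ser window, at the weakest of the 5 peaks, was richer in GC than its flanks.

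The receptor gene N (FBgn0004647, X from 3134870 to 3172221, plus strand) had 6 summits, all in introns. The strongest, of signal 562 at 3162489, ranked 814 and lay 27619 bp downstream of the only annotated transcription start site (TSS), in the fifth of 8 introns, from 3159234 to 3163478. It ranked 842, 1295 and 553 in replicates 1, 3 and 4, a mean of 897 ± 374 (SD, n = 3). The same peak, from 3162365 to 3162710, held a weaker summit of signal 172 at 3162692, which ranked 5641 and 3293 in replicates 1 and 4 but 20184 in replicate 3. Thus the 2 summits of this peak, 203 bp apart, differed in how alike the libraries ranked them. The first intron, 12.1 kb long, held 3 summits with signals from 153 to 176, and the nearest of them to the TSS was 1712 bp away. The fourth intron held the remaining one, of signal 142. No summit lay within 500 bp of the TSS of N.

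Dl (FBgn0000463, 3R from 19302731 to 19326217, minus strand) encodes Delta, the ligand through which veins signal to the cells that flank them. It had 5 summits, the strongest of signal 352 at 19314527 in the third of 5 introns, 11690 bp downstream of the TSS. This summit ranked 1896 in the IDR list and 1903, 2066 and 1912 in the libraries, a mean of 1960 ± 91.6 (SD, n = 3). The libraries therefore placed it nearly alike. The first intron held 3 more, with signals of 253, 163 and 142. The summit of signal 171, at 19326260, lay 43 bp upstream of the TSS and ranked 6290, 4187 and 13045, so replicate 4 did not match it.

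Ser (FBgn0004197, 3R from 27172090 to 27194267, minus strand) encodes Serrate, the other ligand. It had 5 summits spread over 5 introns, and their median signal of 157 was the lowest among the genes with summits. The strongest had signal 277 at 27186350 in the fourth of 14 introns, 7645 bp downstream of a TSS, and ranked 3856, 3128 and 2926 in replicates 1, 3 and 4, a mean of 3303 ± 489 (SD, n = 3). It was the only Ser summit matched in all 3 libraries. The remaining 4 had signals from 137 to 166. The weakest of these, at 27179160, was the lowest-ranked summit of all the members and stood close to the end of the list. It ranked 17969 in replicate 1, beyond the 7571 strongest, and 6249 and 6903 in replicates 3 and 4. The strongest pooled peak at Ser outside the IDR list had signal 131 and ranked 7818, just past its end.

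fng (FBgn0011591, 3L from 20925891 to 20949512, minus strand) encodes Fringe, a glycosyltransferase that modifies Notch and changes which ligand it responds to. It was the 1 gene whose strongest summits lay outside the gene. A summit of signal 690 at 20950194 lay 682 bp upstream of the TSS, and another of signal 550 at 20950971 lay 1459 bp upstream. Between them lies the short non-coding gene lncRNA:CR45243 (20950359 to 20950783, minus strand), and the farther summit was 188 bp upstream of its TSS. The nearer summit ranked 386, 707 and 528 in replicates 1, 3 and 4 and the farther one 575, 804 and 966, with means of 540 ± 161 and 782 ± 196 (SD, n = 3). Both were thus among the 1892 strongest peaks of every library. A weak summit of signal 140 lay 70 bp upstream of the TSS of fng itself, and its ranks of 8284, 4967 and 10110 gave a match in replicate 3 alone. In the fourth of 6 introns lay 2 summits of signal 237 and 182, and in the first lay 1 of signal 160. The one of signal 182 had no summit within 100 bp in replicate 1.

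neur (FBgn0002932, 3R from 9020348 to 9039471, minus strand) encodes Neuralized, a ubiquitin ligase that marks Delta for uptake in the signalling cell and is made in sensory organ precursors. It held the strongest peak of all the members. This peak, of signal 1327 from 9031843 to 9032205, ranked 89 in the IDR list, within the top 1.18%. In replicates 1, 3 and 4 it ranked 133, 90 and 79, a mean of 101 ± 28.5 (SD, n = 3), so all 3 libraries put it near the top. Its summit lay 1722 bp downstream of an internal TSS at 9033731, in the second of 3 introns, which takes up 48.8% of the gene. A summit of signal 517 lay 197 bp upstream of the same internal TSS, with ranks of 1003, 1448 and 668, and one of signal 182 lay 403 bp upstream. The latter had no summit within 100 bp in replicate 1 and ranked 3945 and 2636 in replicates 3 and 4. The first TSS of neur, at 9039471, had no IDR summit nearer than 5337 bp.

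mam (FBgn0002643, 2R from 13991203 to 14060356, plus strand) encodes Mastermind, the coactivator that joins the complex of Su(H) and the Notch intracellular part. It had 17 summits, the highest count of the members. Of all protein-coding genes, 16 had 17 or more. The strongest, of signal 1062 at 14025203, ranked 183 and lay in the fourth of 9 introns, 6460 bp upstream of an internal TSS at 14031663. Its library ranks were 149, 253 and 157, a mean of 186 ± 57.9 (SD, n = 3). A second summit of signal 493 lay in the same intron at 14024479, with ranks of 1932, 734 and 754. The second intron, 17.1 kb long, held 9 summits with signals from 163 to 399. All 3 TSSs of mam had a summit within 500 bp: 1 of signal 249 lay 93 bp downstream of the first, 2 of signal 399 and 194 lay upstream of the second by 397 and 197 bp, and 1 of signal 351 lay 2 bp upstream of the third. The summit of signal 433 at 14037240 was an exception among the strong ones: it ranked 1566 in replicate 1 and 972 in replicate 4, and replicate 3 had no summit within 100 bp. Replicate 3 did have a summit, ranked 2033, at the neighbouring one 199 bp away, of signal 321.

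numb (FBgn0002973, 2L from 9437469 to 9464184, plus strand) encodes an inhibitor of Notch that is passed to 1 daughter cell in asymmetric divisions. Its 3 summits were all matched in the 3 libraries, the only gene with summits for which this held. The strongest, of signal 902 from 9449387 to 9449794, ranked 281 in the IDR list and lay 239 bp upstream of the internal TSS at 9449830. It ranked 224, 367 and 289 in replicates 1, 3 and 4, a mean of 293 ± 71.6 (SD, n = 3). The other 2, of signal 241 and 205, lay 1723 bp upstream of that TSS and 926 bp downstream of the first. Their mean ranks were 3727 ± 566 and 4624 ± 476 (SD, n = 3).

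**Figure D1:**
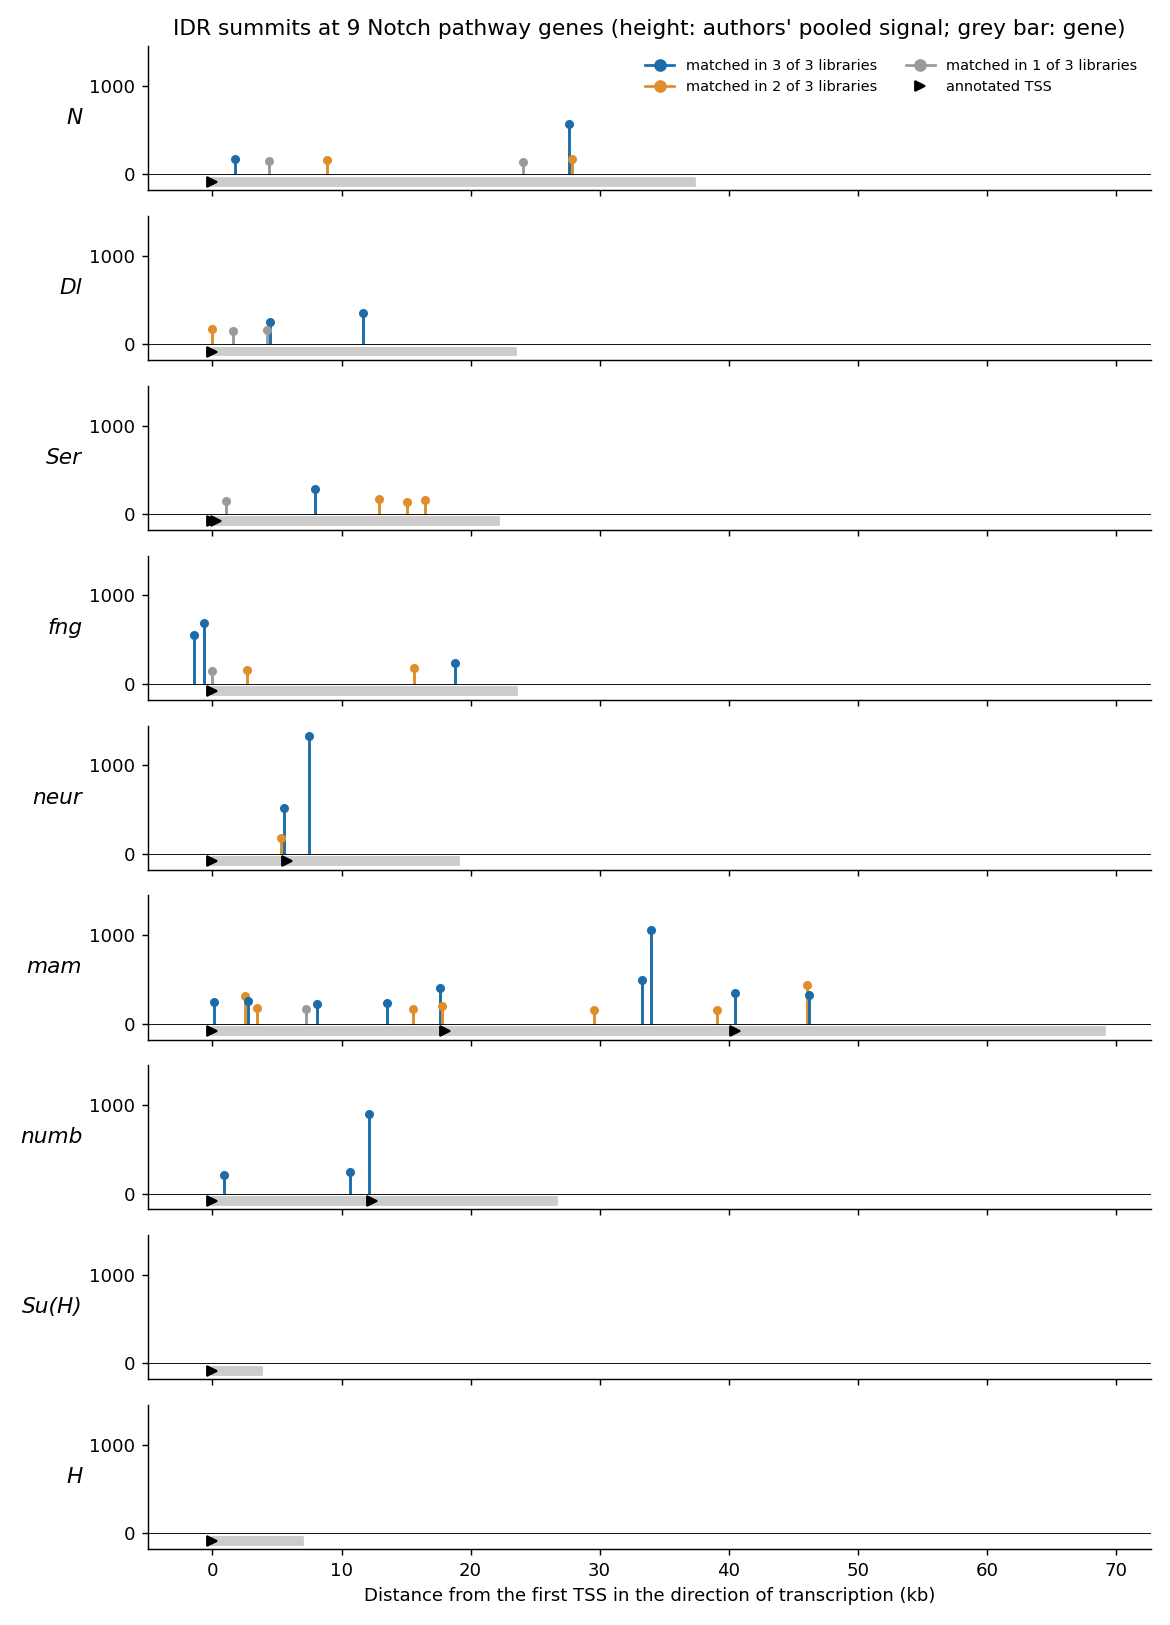
IDR summits at the 9 genes, one panel each: the x axis is the distance from the first TSS in kb in the direction of transcription, and the height is the authors' pooled signal. Colour gives the number of the 3 libraries that matched the summit, arrowheads are TSSs and the grey bar is the gene; the tallest summits are at neur (1327), mam (1062) and numb (902), and the panels of Su(H) and H are empty.

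Su(H) (FBgn0004837, 2L from 15039488 to 15043334, plus strand), which encodes the DNA-binding protein of the pathway, had no IDR summit, and neither did H (FBgn0001169, 3R from 20621938 to 20628915, plus strand), whose product Hairless turns Su(H) into a repressor. The nearest IDR summits were 13517 bp from Su(H) and 27248 bp from H. The relaxed list called on the pooled libraries, with 30000 peaks, also had none within 2 kb of either gene. Its nearest summit to H, of signal 48.1, was 5827 bp away. In the single libraries, H had none. At Su(H), replicate 3 had a summit 31 bp upstream of the TSS, of signal 67.8 and rank 5489, and replicate 4 had one 30 bp upstream, of signal 68.2 and rank 4650. Replicate 1 had none there. Over the genome, 5159 summits were shared within 100 bp by the 7571 strongest of replicates 3 and 4, and 50 of them (0.969%) had no summit of the pooled relaxed list within 250 bp. Weaker peaks outside the IDR list were present at all 7 other genes. The strongest of them had a pooled signal of 125 at N, 124 at Dl and 131 at Ser. At fng, neur, mam and numb it was 93.2, 85.7, 120 and 87.4.

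At the annotated TSSs the 9 genes differed. Within 500 bp of an own TSS, 5 genes had a summit, Dl, fng, neur, mam and numb, against 18.2% of all protein-coding genes. The median span of all protein-coding genes was 2.16 kb, and no share for genes as long as the members was computed for this distance. Of the 9 first TSSs, 3 had a summit within that distance, those of Dl, fng and mam, with signals of 171, 140 and 249. Of the 5 internal TSSs, 4 had one, with 6 summits in all and signals from 182 to 902. The exception was the internal TSS of Ser, 272 bp from the first. With 14 TSSs this is a description, and the difference was not tested. The shares over all first and all internal TSSs of the genome were not computed, so these counts have no background. mam, with 17 summits, has 3 of the 14 TSSs.

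Together the genes held 45 summits in 268 kb of sequence including flanks, or 1.68 per 10 kb. By gene the density ran from 0.977 at numb to 2.32 at mam among those with summits. The same measure counts a summit once for each gene it lies near. It was 0.667 over all protein-coding genes, 0.780 over those within the members' span range and 0.602 over those at least as long as neur. Introns held 34 of the 45 summits (75.6%) and promoters, meaning within 500 bp of any TSS, held 10 (22.2%). Over the whole IDR list 44.7% were intronic and 36.5% at promoters. The last summit, at fng, was intergenic, a class that held 15.9% of the list, and no member summit was in an exon outside promoters, against 2.77%. The members' summits were counted only in a gene or within 2 kb of it, and 41 of the 45 lay inside their gene. The whole list has no such limit and the genes with summits are long, so the shares by location are not a like comparison. No summit lay inside a second gene, but for 15 the nearest TSS was that of another gene, such as CG18508 beyond the end of N and CG18371 in an intron of mam.

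In strength the members' summits were spread over the list, with a median signal of 205 and a median rank of 4349. Of the 45, 10 were among the 1892 strongest IDR peaks, at neur (2), mam (4), numb (1), fng (2) and N (1), and 15 were among the 1892 weakest. In 6 places 2 summits of a gene lay within 250 bp of each other, so neighbouring summits are not independent.

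The libraries were compared over these 45 summits. In all 3 libraries 22 (48.9%) were matched, where 56.8% of all IDR peaks were. A further 16 were matched in 2 libraries and 7 in 1. The rule for a match itself uses strength, since it asks for a summit among the 7571 strongest of a library, so peaks near the end of the pooled list can fail it by construction. By this rule 9 of the 10 among the 1892 strongest were matched in all 3, 13 of the 20 in the middle and 0 of the 15 among the 1892 weakest. In the whole list the share was 94.8% for the strongest 1892 and 5.23% for the weakest 1892. In the whole relaxed lists, 12 of the 15 weakest had a summit within 100 bp in every library. No such share is given for the weakest 1892 of the whole list, so this count has no background. By library, 36, 34 and 35 summits (80.0%, 75.6% and 77.8%) were matched in replicates 1, 3 and 4, near the 78.5%, 81.1% and 80.2% over the whole list. Replicate 3 gave the lowest rank of the 3 for 21 of the 45, counting a missing summit as lowest, and over the whole list for 31.0%.

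**Figure D2:**
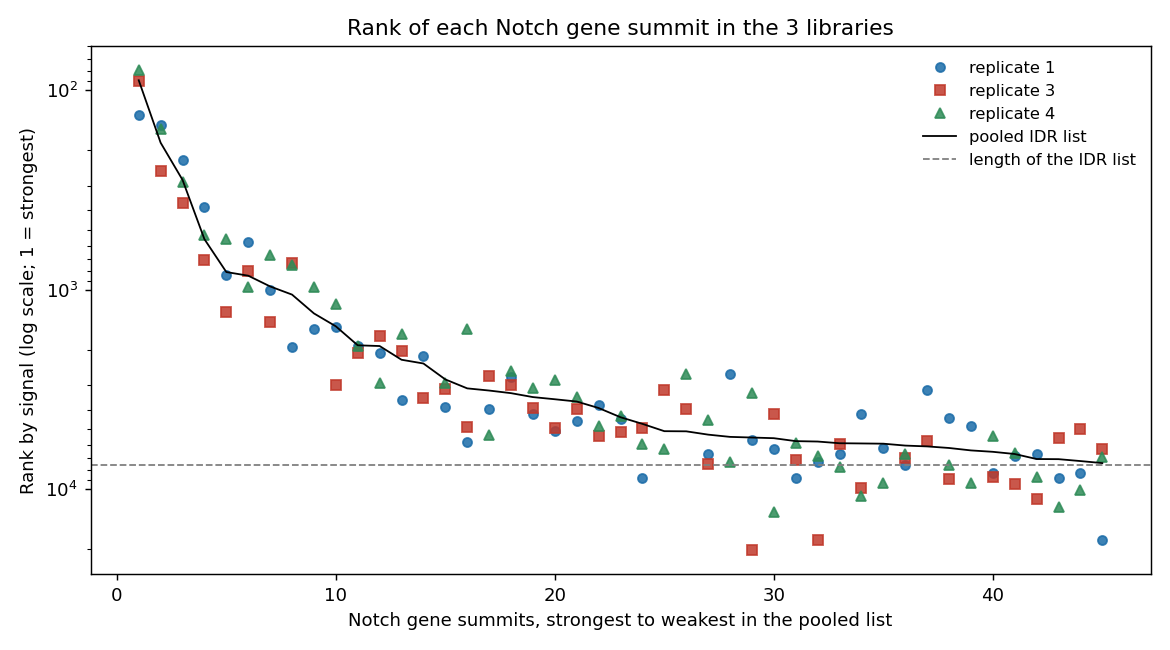
Rank by signal (log scale, 1 at the top) of the 45 summits in replicates 1, 3 and 4, ordered by pooled rank (line); the dashed line is the length of the IDR list, 7571. Points are missing where a library had no summit within 100 bp (2, 4 and 2 summits in replicates 1, 3 and 4), and the libraries stay close for the strongest summits and spread below them, down to rank 20184.

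GC content differed with strength. All 10 summits among the strongest 1892 had a lower GC content than the mean of their flanks, with a mean difference of -18.2 percentage points (SD 4.64, n = 10 summits) and a range from -28.2 to -11.4. Of all 1892 IDR summits of that strength, 82.9% were lower than their flanks, with a mean difference of -11.5. Among the other 35 member summits 21 were lower, with a mean difference of -2.76 and a range from -31.7 to 20.3, where 66.0% of all other IDR summits were and the mean was -6.17. The weaker summits went either way: at Dl, 4 of 5 were not lower. The 2 member summits next past the limit also differed. That of Dl at rank 1896 had a GC content of 35.6%, with 44.6% in its flanks. That of mam at rank 1912 had 61.4%, with 41.1% in its flanks, and gave the 20.3 at the end of the range. The clean split thus depends on where the limit was set. This split by strength was made after the data were seen, the summits come from 7 genes, and no test was made.

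**Figure D3:**
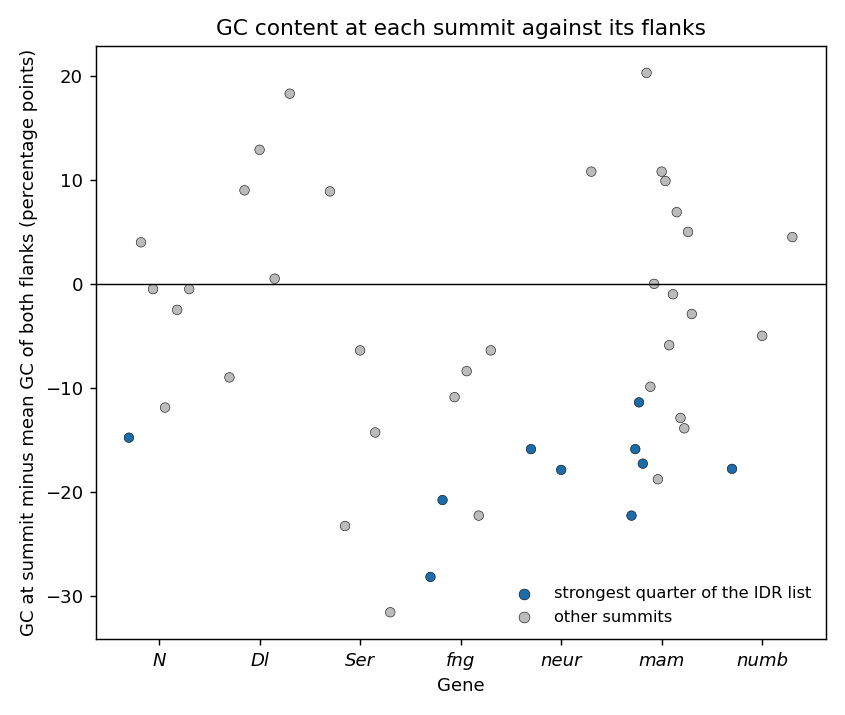
GC content of the 101-base window at each of the 45 summits minus the mean of its 2 flanking windows, in percentage points, by gene. Blue points are the 10 summits among the 1892 strongest IDR peaks, all between -28.2 and -11.4; grey points, the other 35, lie on both sides of 0, with 1 on it.

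Known sequence motifs were sought within 50 bp of each summit, on both strands. The E-box CANNTG, which basic helix-loop-helix proteins recognise, was at 19 of the 45 (42.2%), against 36.7% of all IDR summits, and in 21 and 24 of the left and right flanking windows. The binding site of Su(H), in the forms CGTGGGAA, CGTGAGAA, TGTGGGAA and TGTGAGAA, was at 0 of 45, where 0.832% of all summits held it. It was in 2 and 0 of the left and right flanking windows. With so rare a site, 0 of 45 says little. GAGAG, a word bound by the GAGA factor, was at 11 (24.4%) against 14.3%, with 6 and 13 in the left and right flanks. Among the 22 summits matched in all 3 libraries GAGAG was at 3, where 12.3% of all matched IDR summits held it, so the higher share was not seen there. The core CAGGTA of the factor Zelda was at 0, against 1.82%. The DNA replication-related element TATCGAT was at 1, the strongest summit of numb, against 1.74%.

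Of the 10 strongest, 2 at fng and 2 at mam held an E-box. The element of numb is shown on the plus strand of dm6, at chr2L:9449601-9449631, with the motif in capitals.
numb: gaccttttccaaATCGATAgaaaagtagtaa

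The numb element begins 22 bp after its summit in plus strand coordinates. The letters TATCGAT of that element are on the minus strand, so the plus strand shows their reverse complement. The strongest windows of neur, N, Dl, mam, numb and Ser held no E-box. All 4 weaker summits of Ser did, which was looked at after the motif counts were seen. Such a match describes the letters alone, and a window without one says nothing of which protein was there.

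Other genes of the pathway were taken from a list of 31 drawn up by role. Of these, 15 had an IDR summit by the same rule, beside the background of 34.4%. That background covers protein-coding genes of all lengths, and no share for genes as long as these is given. All 3 genes for ligand ubiquitination and uptake had one, 2 of 8 for modification and cleavage of the receptor, 5 of 8 for its traffic and segregation, 1 of 4 of the Bearded family, which inhibit Neuralized, and 4 of 8 for nuclear factors. The 6 modification and cleavage genes without one had spans from 1.32 to 3.27 kb. Some of the summits counted lay at neighbouring genes. The summit counted for Ocho lay 346 bp from the TSS of lncRNA:marge, and the strongest at dx lay at the TSS of RpL7A. The strongest at Nak was 26 bp from the TSS of Bhmt, and that at mib1 lay in the 5′ UTR of hzg. Nak and mib1 also had summits inside their own bodies, 2 and 1. With gene bodies alone, 11 of the 31 genes had a summit. That count leaves out dx and Ocho, but also lgd and aph-1, whose summits lay within 500 bp of an own TSS. The difference between roles was not tested.

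The strongest peak of the list, of signal 1120, lay 127 bp upstream of a TSS of gro, which encodes the corepressor Groucho, and ranked 226, 168 and 136 in replicates 1, 3 and 4. At spen, a nuclear factor gene, 9 summits were counted, led by an intronic one with signal 895 that ranked 157, 282 and 637. At nej, the gene of the acetyltransferase CBP, there were 4, and the top one (signal 699) was nearest to the TSS of lncRNA:CR42657. Its ranks were 520, 492 and 654. Among the traffic genes lgd had 1 of signal 863, 67 bp upstream of its TSS, ranking 461, 250 and 325, and bib had 5, the strongest of signal 597, 170 bp upstream of its TSS and in an intron of lncRNA:CR13130. The last ranked 845, 1271 and 473. The protease gene kuz, the longest on the list at 89.3 kb, had 9 in the gene or within 2 kb. Inside the gene lay 6 of them, and 2 of the 9 were matched in all 3 libraries. Its top summit, intronic and with signal 627, ranked 626 and 477 in replicates 1 and 4, and replicate 3 had none within 100 bp. The strongest peak at aux, of signal 545, lay in introns of both aux and CG14636. For aph-1, 2 summits were counted, both within 500 bp of an own TSS. The stronger, of signal 509, lay 394 bp from a TSS of aph-1 and 174 bp from that of Snx21.

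No IDR summit was found at the other 16: O-fut1, rumi, Tace, Psn, nct, pen-2, Nedd4, spdo, pon, Brd, Tom, BobA, Bx42, insv, sno and Bre1. Psn, nct and pen-2 encode 3 of the subunits of gamma-secretase, which makes the final cut of Notch, and aph-1 is the remaining one. Among these 16, Nedd4 (16.6 kb) and sno (16.2 kb) were longer than gro, lgd, bib, aux and aph-1, which had peaks.

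**Figure D4:**
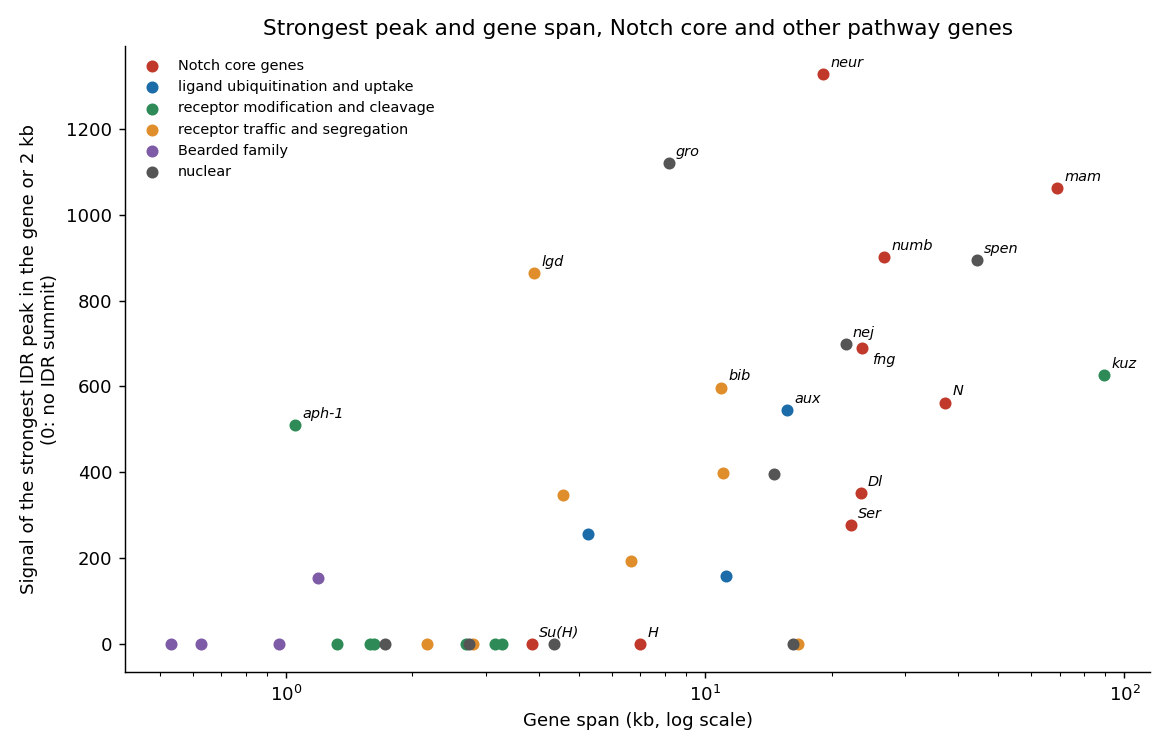
Signal of the strongest IDR peak in the gene or 2 kb (0 where there is none) against gene span in kb on a log scale, for the 9 core genes in red and 31 other pathway genes coloured by role. neur (1327) and gro (1120) are highest, and the core genes Su(H) and H lie at 0 among genes of similar span with and without peaks.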

How the data were processed

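The deposited files are narrowPeak lists, one relaxed list per library, one relaxed list on the pooled libraries and one IDR-thresholded list. Per the deposited file descriptions, the authors called the relaxed lists against a control alignment, not analysed here, and derived the IDR list from all 4 relaxed lists. The sources used here give neither aligner, peak caller nor the scaling of signal, and read depth is unknown. The signal and the summit offset are the authors' deposited values; only ranks were compared between lists. The 3 dm3 lists of libraries and 2 of the series were not used. Genes came from Ensembl (17947 genes without transposable elements and pseudogenes, 23360 TSSs) and sequence from the RefSeq copy of the Release 6 assembly (build dm6). Python 3.11.15 with pandas 2.3.3 and numpy 2.4.6 was used, and matching and motif search were tested on simulated data. Each library's rank is that of its strongest summit within 100 bp. Promoter summits were called first, then exon, intron and intergenic. The alternatives changed the gene window, the promoter limit, the match distance, the peak list and the libraries required. All 9 genes are named, with the 8 other pathway genes of strongest peak and every one with none. The genes and lists were chosen with earlier results of these data known. The sequence at fng is not reported here.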

Additional observations from a re-analysis of the deposited data

How the results depend on the processing

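The number of Notch genes with a summit was 7 with gene bodies alone, with 5 kb flanks, with the strongest 3785 IDR peaks alone and with overlapping peaks merged. These outcomes follow from the summits already described and add no separate support. Merging cannot remove a gene, and the nearest IDR summits to Su(H) and H lay beyond 5 kb. Each of the 7 genes had a summit ranked 2811 or better, and each had summits inside the gene. The number was 5 with summits within 500 bp of an own TSS. Without any 1 of the replicates it was also 7, which was fixed in advance, since each of the 7 genes had a summit matched in all 3 libraries. The 45 summits became 9 near own TSSs, 21 among the strongest 3785 and 26 to 28 when matches were required in both remaining libraries without replicate 1, 3 or 4, an alternative that removes peaks by construction. The 15 other pathway genes became 11 with gene bodies alone, 18 with 5 kb flanks and 9 near own TSSs. The 22 summits matched in all 3 libraries became 12 with matches within 50 bp and 37 with the whole relaxed lists. Shares of all IDR peaks under these alternatives are not given, so the counts have no background. With windows of 100 bp on each side, E-boxes were at 30 of the 45 summits (61.1% of all IDR summits), the replication-related element at 3 (3.41%) and the Su(H) site at 1 (2.05%). In the same windows GAGAG was at 15 (28.1%) and the Zelda core at 0 (3.83%). Among the 22 matched summits, E-boxes were at 9 (35.0% of all matched IDR summits) and GAGAG at 3 (12.3%). The strongest summit of each gene was the same under the mean library rank. It was also the same without each replicate, but this could not come out otherwise. These summits were matched in all 3 libraries, and leaving out a replicate only required matches in the others. At fng, counting within the gene alone moved the strongest summit from 20950194 to 20930683. The number of reads behind a peak is unknown, so small differences in rank among weak peaks cannot be weighed. No paired analysis was possible because there is 1 group.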

Other observations

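The 7571 strongest peaks of each library had 46, 41 and 42 summits at the 9 genes in replicates 1, 3 and 4. Of these, 10, 7 and 7 had no IDR summit within 100 bp, against 21.5%, 18.9% and 19.8% of each library's list over the genome. At mam replicate 1 alone had 22 such strong summits, of which 7 had no IDR summit, whereas replicate 3 had 14 and replicate 4 had 16.

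Among the 10 E-box words, CAAATG was at 8 member summits, and at 9.15% of all IDR summits. CACCTG was at 4, against 2.38%, CAAGTG at 3, against 5.94%, and CAGCTG at 2, against 4.42%. At 1 summit each were CACGTG, against 0.792%, CAACTG, against 5.52%, CACATG, against 4.12%, CAGATG, against 4.04%, and CATATG, against 3.90%. CAATTG was at 0, against 4.25%.

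A stretch of 12 or more bases of A and T alone was at 6 of the 45 summits and at 28.2% of all IDR summits. The flanking windows of all IDR summits held one in 15.3%. Of the members' own flanking windows, 8 of 45 on the left and 3 of 45 on the right held one, about as often as the summits themselves. The median longest stretch was 9 bases both for the members and for all summits. This count was added after the data were seen.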
